A study of Mus musculus with 62 samples.

Results

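The levels of 10 genes of the Nodal, BMP and Id group were followed across mouse male germ cells from fetal life, germ cells grown from embryonic stem cells (ESCs), and spermatogonial cell lines. They were taken by name from the 35914 nuclear genes of each table, and comprised the ligands Bmp4 and Nodal, the Nodal coreceptor Tdgf1 (Cripto), the inhibitors Lefty1 and Lefty2, and the transcriptional targets Id1, Id2, Id3, Msx1 and Msx2. All 10 were among the 16008 genes that reached 5 reads per 1000000 in at least 2 libraries.

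Nodal is a TGF-beta family ligand that acts through activin receptors with Tdgf1 as its coreceptor and, inside the cell, through SMAD2, SMAD3 and the DNA-binding partner FOXH1. Nodal itself and the Lefty genes are targets of this signal, and Lefty proteins feed back by blocking Nodal. Bone morphogenetic proteins such as BMP4 signal through SMAD1, SMAD5 and SMAD9, which switch on the Id genes, whose products hold basic helix-loop-helix factors off DNA, and the homeobox genes Msx1 and Msx2. BMP4 induces primordial germ cells (PGCs) in the mouse embryo, and Nodal signalling with Lefty expression has been described in fetal male germ cells.

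Each of 31 groups held 2 libraries, 62 in all, of 3′-end RNA sequencing from 1 ng of RNA. In vivo germ cells carried Ddx4-RFPTg/0 on the strain labelled ICR x B6C3(Cg)B6F1(5N) and were sorted by flow cytometry. They came from each embryonic day between E14.5 and E18.5, labelled prospermatogonia (the arrested fetal male germ cell), and from postnatal days P0, P1, P3, P5 and P7, labelled spermatogonia. The cultured series carried the reporters Prdm1-mVenusTg/0 and Dppa3-ECFPTg/0, together with mvh(Ddx4)-RFPTg/0, on B6C3(Cg) × C57BL/6. It ran from PGC-like cells (d4, and d4c5 after expansion) to cells labelled prospermatogonia-like at m0, m3, m5 and m7 and spermatogonia-like at m10, m12 and m14, sorted from reconstituted testes, in which PGC-like cells were aggregated with fetal testis somatic cells of ICR mice. GSC1 was a germline stem cell line, cultured spermatogonia with stem cell activity, of genotype Acr-EGFPTg/0; Actin-EGFPTg/0 on 129/SvJcl x C57BL/6. The 11 GSC-like lines (W1 to W4, S1 to S4, 16_W1, 16_W2 and 16_W4) carry the genotype and strain labels of GSC1, whereas the protocol derives them from m14 cells of the cultured series, and the labels do not spell out W, S or 16. Between the in vivo and cultured series, effects of strain, of reporter alleles and of culture cannot be told apart. No label says whether the libraries of a group came from separate animals or cultures, so p-values measure the spread between these libraries, which may be technical.

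Promoter sequence is shown for the ligand Nodal and its coreceptor Tdgf1, both called lower over the stage step in culture, and for Id2 and Id3, which did not follow each other. Each run is the 250 bases before the RefSeq start site, 5′ to 3′ on the gene's own strand in GRCm38.p6, the build of the deposited tables. RefSeq windows were matched for 7 of the 10 genes. Capitals mark GGCGCC, a GC-rich palindrome bound by BMP-activated SMADs, and GTCT or its reverse complement AGAC, the minimal SMAD box. Nodal is at chr10:61417722-61417971 (plus strand), Tdgf1 at chr9:110946159-110946408 (minus), Id2 at chr12:25096093-25096342 (minus) and Id3 at chr4:136143572-136143821 (plus).
Nodal: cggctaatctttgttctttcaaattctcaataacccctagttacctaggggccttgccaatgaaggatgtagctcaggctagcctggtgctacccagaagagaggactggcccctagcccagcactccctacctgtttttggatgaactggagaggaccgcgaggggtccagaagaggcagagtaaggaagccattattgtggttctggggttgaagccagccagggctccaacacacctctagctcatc
Tdgf1: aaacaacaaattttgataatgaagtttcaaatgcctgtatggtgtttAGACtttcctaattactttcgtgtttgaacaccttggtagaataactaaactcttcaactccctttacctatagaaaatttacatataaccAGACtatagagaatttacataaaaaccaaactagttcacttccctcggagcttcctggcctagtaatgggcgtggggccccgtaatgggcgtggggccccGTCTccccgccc
Id2: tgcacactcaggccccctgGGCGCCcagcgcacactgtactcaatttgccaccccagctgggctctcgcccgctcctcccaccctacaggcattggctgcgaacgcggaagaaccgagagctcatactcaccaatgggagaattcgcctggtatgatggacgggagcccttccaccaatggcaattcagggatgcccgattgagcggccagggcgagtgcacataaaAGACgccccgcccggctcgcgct
Id3: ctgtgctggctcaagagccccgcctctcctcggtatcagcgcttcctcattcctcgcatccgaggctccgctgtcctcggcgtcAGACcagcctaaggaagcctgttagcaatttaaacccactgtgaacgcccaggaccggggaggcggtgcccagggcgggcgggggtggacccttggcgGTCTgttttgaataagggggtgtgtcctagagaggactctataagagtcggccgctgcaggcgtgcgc
GGCGCC occurred in 1 of the 7 windows, that of Id2, with its first base 231 bases before the start, against 9.59% of 32851 RefSeq windows of this length. GTCT or AGAC occurred 3 times in the window of Tdgf1, 2 times in Id3 and 1 time in Id2, and in 82.9% of all windows. The Nodal window held neither, and the FOXH1 motif AATCCACA (or its reverse complement), present in 0.718% of all windows, was in none of the 7. These are matches of letters, searched on both strands, and not measured binding sites.

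Libraries held 1404261 to 4485280 reads on nuclear genes and levels are given as CPM, counts per 1000000 reads after TMM scaling (the trimmed mean of M values). The 6 germ cell markers summed to 2580 to 5350 CPM in vivo, to 106 to 225 CPM at d4 and d4c5, and to 594 to 2200 CPM at m0 and m3. Of the 14 Sertoli cell markers, 11 to 13 had reads in the in vivo libraries with a sum of 39.5 to 389 CPM, and 11 to 13 in the m0 to m14 libraries with a sum of 369 to 946 CPM; Amh was at 0 in all libraries of these groups. The 14 macrophage and blood markers summed to 3.53 to 20.4 CPM at m0 and m3 and to 117 to 1270 CPM in the spermatogonia-like cells, where the first m10 library stood at 1270 and the second at 117 CPM. In such bulk RNA, fewer cells of a type and less RNA per cell cannot be told apart, and the part of other cells in the values below was not tested. In RefSeq, Bmp4, Lefty1, Msx1 and Msx2 overlap noncoding genes, and Bmp4 and Tdgf1 have pseudogenes elsewhere, so reads that could belong to either are uncertain.

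The Nodal branch was high in the first part of the culture and low from m7 to m14, where no library of its genes passed 5.64 CPM. Tdgf1 was already low at m5, with 1.31 and 3.34 CPM. Nodal had 29.8 and 22.6 CPM at d4, 26.6 and 22.8 at d4c5, 21.1 and 26.1 at m0 and 32.3 and 28.2 at m3. It then stood at 10.5 and 5.73 CPM at m5 and at 0.626 and 1.29 at m7, and had no read in either m14 library. Each library up to m3 was above each later one, while the d4, d4c5, m0 and m3 libraries overlapped.

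Tdgf1, whose product presents Nodal to its receptors, was highest at d4 with 288 and 214 CPM. It had 26.6 and 56.3 CPM at d4c5, 31.9 and 58.6 at m0, 5.1 and 24.2 at m3, 1.31 and 3.34 at m5 and 1.88 and 5.16 at m7. The d4 libraries lay above all other libraries of the series, and those of d4c5 and m0 overlapped.

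Lefty1 and Lefty2, the secreted Nodal inhibitors, were lower at d4c5 than on either side and had their highest means at m3. Lefty1 had 280 and 314 CPM at d4, 106 and 83.4 at d4c5, 200 and 170 at m0, 566 and 341 at m3, 137 and 69.2 at m5 and 5.64 and 2.58 at m7. Lefty2 had 203 and 219 CPM at d4, 31.9 and 26.5 at d4c5, 191 and 201 at m0, 310 and 281 at m3, 57.1 and 38.7 at m5 and 2.51 and 4.51 at m7. The libraries of both genes at d4c5 lay below those at d4 and m0, and those at m7 below all earlier ones. From m10 to m14 both genes stayed at or below 3.54 CPM. Their 3′ ends can be told apart by reads: the last 300 bases of the longest protein-coding transcripts (GENCODE vM21) were 50.3% identical when aligned, with no identical run over 7 bases.

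**Figure D1:**
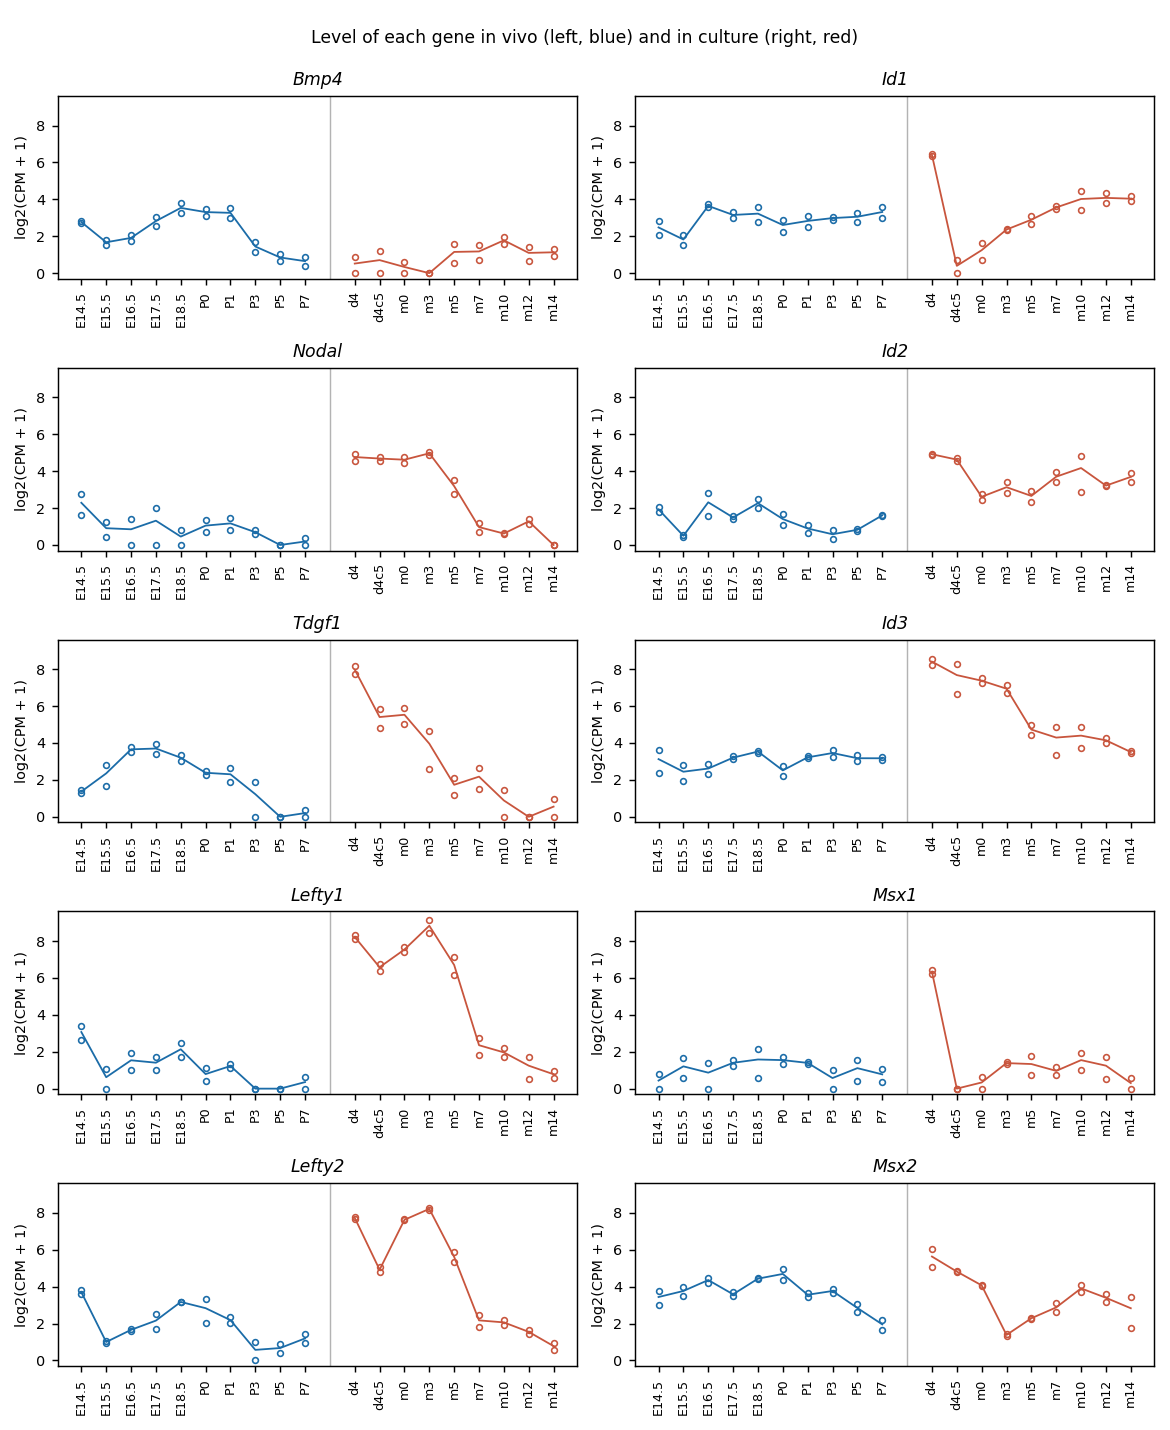
Levels of the 10 genes, as log2(CPM + 1), at the 10 in vivo time points (left, blue) and the 9 culture time points (right, red). Open circles are libraries and lines join the means of 2. Lefty1 and Lefty2 had their highest culture means at m3, 453 and 296 CPM, while no in vivo library of either passed 13 CPM.

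In vivo the same 4 genes were present at low levels, with their own order in time. Lefty2 had 13 and 11 CPM at E14.5, 0.934 and 1.07 at E15.5, 7.85 and 8.16 at E18.5 and at most 1.68 from P3 to P7. Lefty1 had 9.46 and 5.3 CPM at E14.5, 0 and 1.07 at E15.5, 2.33 and 4.45 at E18.5, and no read at P3 or P5. Both inhibitors were higher in both E14.5 libraries than in either E15.5 library, and the E18.5 libraries lay between. Tdgf1 ran otherwise, from 1.75 and 1.41 CPM at E14.5 to 10.4 and 12.8 at E16.5, 9.44 and 14.6 at E17.5 and 0 in both P5 libraries. Nodal was highest at E14.5, where its libraries disagreed with 2.1 and 5.66 CPM, and the later in vivo libraries held 0 to 9 reads of it each.

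Bmp4, the ligand that induces PGCs, was highest around birth in vivo and scarce in the cultured series. It had 12.8 and 8.41 CPM at E18.5, 10.2 and 7.65 at P0, 10.5 and 6.8 at P1, 2.2 and 1.25 at P3 and 0.838 and 0.303 at P7. In culture it stayed between 0 and 2.83 CPM, that is at 0 to 5 reads in a library, and was at 0 in both m3 libraries. The E18.5, P0 and P1 libraries overlapped each other and lay above all of P3 to P7.

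Among the targets, Id1 and Msx1 were high at d4 and nearly absent at d4c5. Id1 had 79.5 and 87.7 CPM at d4, 0 and 0.632 at d4c5 and 0.638 and 2.09 at m0, and then stood at 10 and 11.6 at m7 and 16.8 and 14 at m14. Msx1, a homeobox gene induced by BMP, had 86.4 and 72.9 CPM at d4, no read at d4c5 and at most 2.83 CPM in every later culture library. Both d4 libraries were above every other library of the cultured series for either gene.

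Id3 and Id2 did not pass the test over that step. Id3 had 303 and 374 CPM at d4, 310 and 98.6 at d4c5, 181 and 150 at m0, 105 and 139 at m3, 21 and 30.1 at m5 and 10.7 and 10.1 at m14. Its d4c5 libraries disagreed more than any of its other groups on the CPM scale. Id2 had 29.8 and 28.7 CPM at d4, 25.3 and 22.1 at d4c5 and 4.47 and 5.75 at m0. Later it had 14.4 and 9.67 CPM at m7, 27.8 and 6.22 at m10, 8.09 and 8.5 at m12 and 9.8 and 14 at m14. The higher m10 library was the one with 1270 CPM of macrophage and blood markers, and that list summed to 724 and 784 CPM at m14 and to 123 and 132 at m7; its part in the Id2 level was not tested.

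Msx2, the other Msx homeobox gene, had 32.1 and 65.1 CPM at d4, 27.3 and 27.2 at d4c5, 16 and 15.7 at m0, 1.7 and 1.51 at m3 and 16.2 and 11.9 at m10. In vivo it was highest at P0, with 19.7 and 29.8 CPM, and lowest at P7, with 3.63 and 2.12. The in vivo libraries of the Id genes ranged from 1.87 to 12.2 CPM for Id1, 2.8 to 11.5 for Id3 and 0.244 to 5.92 for Id2, while Msx1 stayed at or below 3.49 CPM.

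Consecutive time points were compared within each course to ask where along it each gene moved. Groups were compared by edgeR's quasi-likelihood test in a fit of all 62 libraries, and called genes are those with an adjusted p below 0.05 and a change of 1 or more, up or down, on the log2 scale. The 10 genes gave 17 calls in the 80 culture tests, against 6.45% of the tests of all genes over these 8 steps, and 8 calls in the 90 in vivo tests, against 7.3% over those 9 steps. In culture 15 of the 17 calls were falls, and in vivo 6 of 8, where 36.7% and 51.7% of the calls over all genes were.

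From d4 to d4c5, while PGC-like cells were expanded, 5 of the 10 genes fell and none rose, where 2.21% of all genes fell. Msx1 fell from 197 reads in both d4 libraries to 0, which is at least 81.4-fold lower when d4c5 is set to a floor of 3 reads over the group. Id1 fell by 7.82 on the log2 scale (SE 0.653, edgeR adjusted p = 2.88e-13), from 205 reads to 1. Resting on that read, the change ranged from -6.92 to -10.94 when a library was left out and was -3.84 with limma at a pseudocount of 5. Lefty2 fell by 2.85 (SE 0.304, edgeR adjusted p = 1.3e-09) and Lefty1 by 1.65 (SE 0.308, edgeR adjusted p = 0.000312). Tdgf1 fell by 2.6 (SE 0.522, edgeR adjusted p = 0.000985), a call that was lost without the first d4c5 library (adjusted p = 0.0665). Id3 had a log2 fold change of -0.73 (SE 0.366, edgeR adjusted p = 0.262) and Id2 of -0.3 (SE 0.514, edgeR adjusted p = 0.859). Without the first d4c5 library Id3 was called at -1.75 (adjusted p = 0.0071).

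On entry into the reconstituted testis, Lefty2 rose by 2.75 from d4c5 to m0 (SE 0.302, edgeR adjusted p = 3.57e-09) and Id2 fell by 2.19 (SE 0.591, edgeR adjusted p = 0.0205), among 2.8% of all genes called. The Id2 call was lost when the first d4c5 library or either m0 library was left out, with adjusted p up to 0.157. From m0 to m3, where 6.18% of all genes were called, Lefty1 rose by 1.29 (SE 0.294, edgeR adjusted p = 0.00292) and Msx2 fell by 3.28 (SE 0.695, edgeR adjusted p = 0.000763). The Lefty1 rise was lost without the second m0 or the first m3 library, with adjusted p up to 0.166. Over these 2 steps the germ cell markers went from 183 to 225 CPM at d4c5 to 594 to 2200 CPM at m0 and m3, and the Sertoli markers from 31.3 to 46.8 CPM to 788 to 946 CPM; their part in these changes was not tested.

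From m3 to m5, Nodal, its coreceptor and both inhibitors fell, and 5 of the 10 genes fell in all, where 4.22% of all genes did. Lefty2 fell by 2.64 (SE 0.288, edgeR adjusted p = 4.56e-10) and Lefty1 by 2.15 (SE 0.306, edgeR adjusted p = 1.02e-06). Id3 fell by 2.25 (SE 0.436, edgeR adjusted p = 0.000207). Tdgf1 fell by 2.66 (SE 0.801, edgeR adjusted p = 0.0131) and Nodal by 1.92 (SE 0.664, edgeR adjusted p = 0.0288). When a library was left out, the change of Tdgf1 ranged from -3.54 to -1.04 and that of Nodal from -2.39 to -1.52. Both calls were lost when certain single libraries were left out. That of Tdgf1 was lost without the second m3 or either m5 library (adjusted p up to 0.566) and that of Nodal without either m3 or the second m5 library (up to 0.233). From m5 to m7, where 3.75% of all genes fell, Lefty1 fell by 4.61 (SE 0.462, edgeR adjusted p = 5.89e-09) and Lefty2 by 3.75 (SE 0.434, edgeR adjusted p = 2.49e-08). Nodal fell by 3.0 (SE 1.01, edgeR adjusted p = 0.0352), which was lost without the first m5 or either m7 library, with adjusted p up to 0.21. Sertoli markers summed to 940 and 827 CPM at m3, 431 and 500 at m5 and 722 and 438 at m7, germ cell markers to 1390 and 2200, 2940 and 3700, and 3300 and 3960, and macrophage and blood markers to at most 20.4 CPM at m3, 7.88 and 11 at m5 and 132 and 123 at m7. Their part in these falls was not tested. None of the 10 genes was called at the 3 later culture steps, to m10, m12 and m14, where 7.2%, 4.26% and 0.0437% of all genes were.

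**Figure D2:**
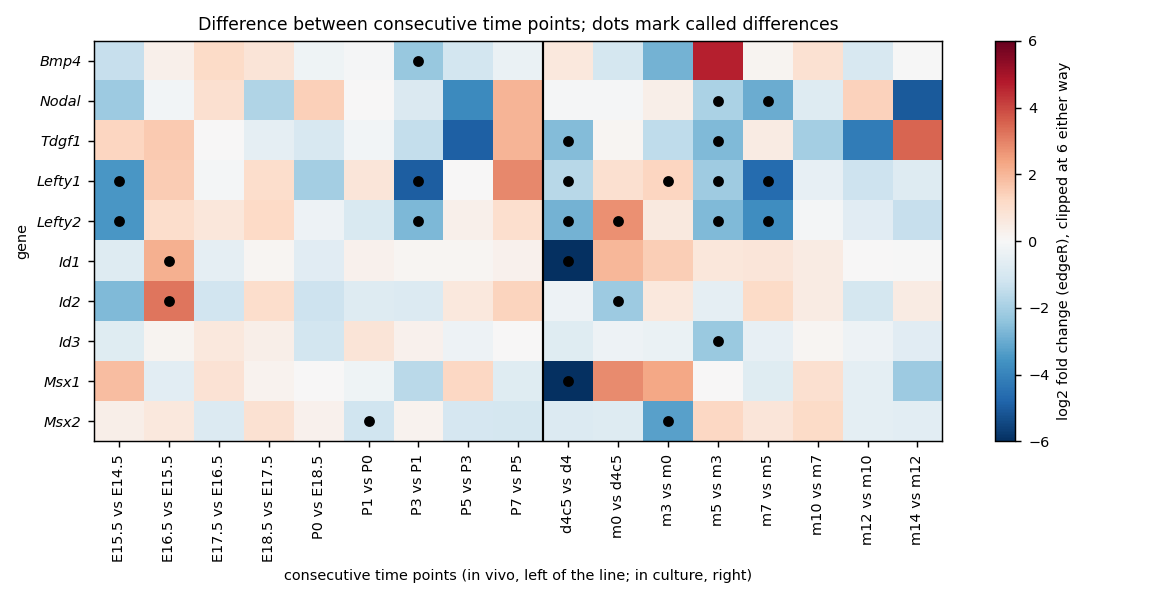
Log2 fold changes of the 10 genes at the 9 in vivo and 8 culture steps between consecutive time points, coloured from lower (blue) to higher (red) and clipped at 6 either way. Dots mark the called steps, 8 in vivo and 17 in culture; a colour at a step from or to a group with no read (Bmp4 from m3 to m5, for example) depends on the prior count of the fit.

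Of other pathway genes, Foxh1 and Gdf3, named after their values were seen, were also called lower at both steps. Foxh1, the DNA-binding partner of SMAD2 and SMAD3, fell by 2.39 from m3 to m5 (SE 0.318, edgeR adjusted p = 3.92e-08) and by 1.7 from m5 to m7 (SE 0.41, edgeR adjusted p = 0.00277), from means of 146 to 28.5 and 8.55 CPM. Gdf3, a ligand of the same receptors, fell by 1.61 (SE 0.463, edgeR adjusted p = 0.0084) and by 2.42 (SE 0.661, edgeR adjusted p = 0.0097), from 53.4 to 17.9 and 3.2 CPM. Both were among 74 other genes of the pathway on 7 lists (ligands, receptors, SMADs and partners, inhibitors, other targets, E proteins, convertases), 65 of which passed the filter. Of the 65, 7 fell and 6 rose from m3 to m5, where 4.22% of all genes fell and 11.4% rose, and 6 fell and 2 rose from m5 to m7, where 3.75% fell and 6.86% rose. T, a T-box gene on the target list, rose at both steps, by 2.68 (SE 0.889, edgeR adjusted p = 0.0217) and 2.17 (SE 0.468, edgeR adjusted p = 0.000923).

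In vivo the calls fell at E15.5, E16.5, P1 and P3. From E14.5 to E15.5, where 2.54% of all genes fell, Lefty2 fell by 3.5 (SE 0.559, edgeR adjusted p = 1.48e-05) and Lefty1 by 3.51 (SE 0.791, edgeR adjusted p = 0.00185). From E15.5 to E16.5, where 6.48% of all genes rose, Id1 rose by 2.12 (SE 0.492, edgeR adjusted p = 0.00158), from 1.87 and 3.22 CPM to 10.8 and 12.2. Id2 rose by 3.19 (SE 0.953, edgeR adjusted p = 0.0148), from 2 reads in both libraries together to 23, and this call was lost without either E15.5 or the second E16.5 library, with adjusted p up to 0.268. From E14.5 to E15.5 to E16.5 the Sertoli markers summed to 125 and 93.7, 150 and 189, and 299 and 389 CPM, and the 14 stromal markers to 147 and 165, 187 and 211, and 488 and 445 CPM; their part in these calls was not tested.

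Msx2 fell by 1.19 from P0 to P1 (SE 0.439, edgeR adjusted p = 0.0463), where 5.04% of all genes fell, and the call was lost without the second P0 or either P1 library (adjusted p up to 0.343). From P1 to P3, where 16.3% of all genes fell, Bmp4 fell by 2.27 (SE 0.644, edgeR adjusted p = 0.00496), Lefty2 by 2.7 (SE 0.735, edgeR adjusted p = 0.00352) and Lefty1 from 6 reads to 0, at least 4.27-fold lower against a floor of 3 reads over the group. The Bmp4 call was lost without the first P1 or the second P3 library (adjusted p up to 0.0768), that of Lefty2 without the second P3 library (0.0884) and that of Lefty1 without the second P1 or either P3 library (up to 0.127). Macrophage and blood markers summed to 126 and 118 CPM at P1 and 38.9 and 27.9 at P3, and Sertoli markers to 119 in both P1 libraries and 101 and 50.1 at P3; their part was not tested. None of the 10 genes was called at the other 5 in vivo steps, to E17.5, E18.5, P0, P5 and P7, where 0.0562%, 2.32%, 3.62%, 2.97% and 2.14% of all genes were.

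The stage step, the mean of the spermatogonial time points minus that of the prospermatogonial ones, was then compared in vivo and in culture. In vivo, 5 of the 10 genes fell and none rose, where 32.9% of all genes were called and 21.7% fell. Tdgf1 fell by 3.04 (SE 0.528, edgeR adjusted p = 4.21e-06), Lefty1 by 3.18 (SE 0.63, edgeR adjusted p = 2.64e-05), Lefty2 by 1.23 (SE 0.306, edgeR adjusted p = 0.000392), Nodal by 1.55 (SE 0.645, edgeR adjusted p = 0.0304) and Bmp4 by 1.02 (SE 0.318, edgeR adjusted p = 0.00397). Lefty1 had no read at P3 or P5, and Tdgf1 and Nodal none at P5, so their sizes depend on the prior count of the fit. With limma at a pseudocount of 5, Tdgf1 stood at -0.75, Lefty1 at -0.45 and Nodal at -0.13. The libraries of the 2 stages overlapped for all 10 genes. The calls of Lefty2, Nodal and Bmp4 were lost without E14.5, an alternative chosen after seeing the data, and none of the 5 was called with the time point as the unit, where 13.3% of all genes were. Single libraries also decided calls: that of Nodal was lost without the first E15.5 library, the second of E14.5, P1 or P7, or either of P5, at -1.55 to -1.3. Without the first E16.5 or the second E17.5 or E18.5 library Nodal stood at -0.72, -0.52 and -0.89, and Lefty1 at -2.41 without the second E15.5 library. In each of these cases the remaining library held no read, and the fit gave no usable p. Bmp4 fell under the fold required, at -0.92 to -1.0, without the first library of E16.5, E17.5 or E18.5, either of E14.5, or the second of E15.5, P0, P1, P3, P5 or P7. Id1 and Id3 had log2 fold changes of 0.14 (SE 0.197) and 0.13 (SE 0.275), with edgeR adjusted p of 0.536 and 0.696.

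In culture, 5 of the 10 genes fell and 2 rose, where 18.7% of all genes were called, 5.35% lower and 13.3% higher. Lefty1 fell by 5.76 (SE 0.418, edgeR adjusted p = 6.6e-15) and Lefty2 by 5.04 (SE 0.353, edgeR adjusted p = 1.82e-17). Tdgf1 fell by 5.03 (SE 0.812, edgeR adjusted p = 3.77e-06), Nodal by 4.66 (SE 0.852, edgeR adjusted p = 1.18e-05) and Id3 by 1.88 (SE 0.275, edgeR adjusted p = 9.02e-07). Tdgf1 had no read at m12 and Nodal none at m14, so the sizes of these 2 depend on the prior count of the fit. Over the alternatives with all libraries kept or whole time points left out, they ranged from -5.34 to -1.39 for Tdgf1 and from -4.7 to -1.45 for Nodal. Id1 rose by 1.76 (SE 0.264, edgeR adjusted p = 1.48e-07) and Bmp4 by 1.99 (SE 0.773, edgeR adjusted p = 0.0329), the latter from 9 reads over 8 libraries to 19 over 6, a call lost without either m3 library, the first m0 library or the second library of m5, m7, m10, m12 or m14. For all 10 genes the libraries of the 2 stages overlapped. Without m0 and m3, whose Sertoli marker sums were the highest of the series, Lefty1, Lefty2, Tdgf1 and Nodal were called and Id1, Id3 and Bmp4 were not, against 17.1% of all genes. With the time point as the unit, Lefty1 and Lefty2 were called, against 0.902% of all genes.

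**Figure D3:**
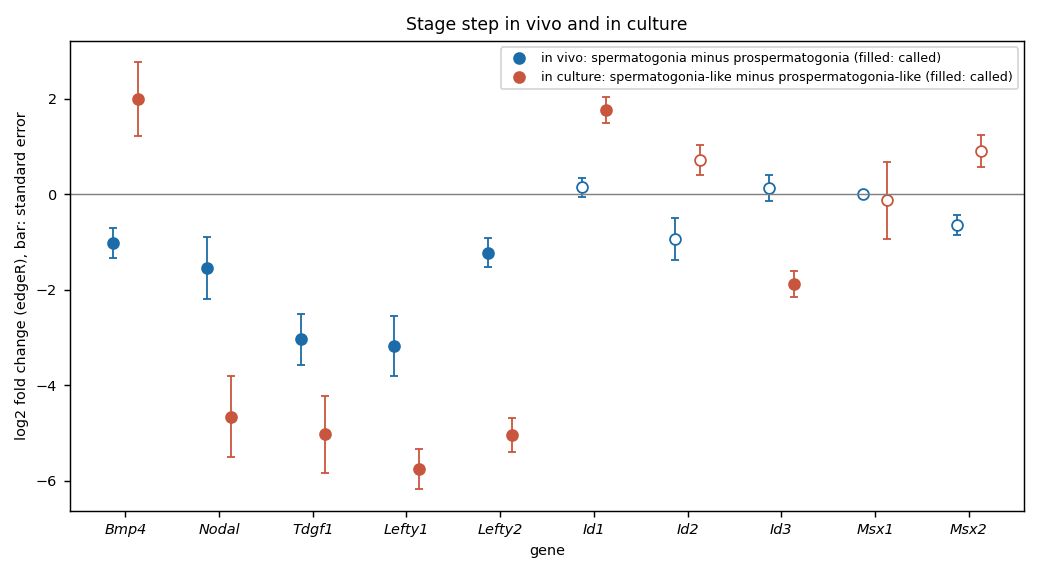
Log2 fold change of each of the 10 genes over the stage step in vivo (blue) and in culture (red), with standard errors where the fit gave one and filled points for called changes. Lefty1 and Lefty2 fell by 5.76 and 5.04 in culture and by 3.18 and 1.23 in vivo. Time points with no read enter the points of Lefty1 in vivo, Bmp4 in culture, and Tdgf1 and Nodal in both. The sizes of those points depend on the prior count of the fit.

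The difference between the stage steps was tested as an interaction, culture minus in vivo, and 6 of the 10 genes were called, against 26.8% of all genes. The fall of Lefty2 was larger in culture by 3.81 on the log2 scale (SE 0.508, edgeR adjusted p = 1.49e-08), and the Id3 change, called lower in culture and not called in vivo, differed by -2.01 (SE 0.39, edgeR adjusted p = 6.39e-05). The difference was positive for Id1 (1.62, SE 0.338, edgeR adjusted p = 7.08e-05), Bmp4 (3.01, SE 0.824, edgeR adjusted p = 0.00208), Msx2 (1.53, SE 0.387, edgeR adjusted p = 0.00083) and Id2 (1.67, SE 0.548, edgeR adjusted p = 0.0099). The Id2 difference was lost without the first m10 library (1.18, adjusted p = 0.0655), the one with 1270 CPM of macrophage and blood markers, and the fit gave no p for Lefty2 without the first P3 library. For Nodal, Tdgf1 and Lefty1 edgeR gave no usable p. With limma on log2(CPM + 1) these 3 genes were called and 9 of the 10 in all, among 4589 of 16008 genes, whereas DESeq2 called 8, without Tdgf1, among 4679, and limma at a pseudocount of 5 called 5, without Tdgf1, Bmp4, Id2 and Msx2, among 1800. Without m0 and m3, Lefty2 and Msx2 alone were called, against 7.67% of all genes, and with the time point as the unit neither any member nor any other gene was.

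Of the 65 other pathway genes, 7 rose and 15 fell over the in vivo stage step and 12 rose and 5 fell over that in culture, with medians of 0.06 and 0.12 against -0.12 and 0.11 for all genes. Over all genes 11.2% rose and 21.7% fell in vivo, and 13.3% rose and 5.35% fell in culture. The medians of the 10 genes were -0.98 and -1.0. In vivo Smad3, a signal carrier of Nodal and activin, rose by 2.53 (SE 0.176, edgeR adjusted p = 1.83e-19), from a mean of 4.75 to 26.2 CPM, and Smad1, a carrier of BMP signals, by 1.45 (SE 0.192, edgeR adjusted p = 1.73e-09). Smad9, another BMP carrier, fell by 1.27 (SE 0.285, edgeR adjusted p = 9.38e-05). Bmp6, a BMP ligand, rose by 1.1 in vivo (SE 0.194, edgeR adjusted p = 1.61e-06) and by 3.02 in culture (SE 0.355, edgeR adjusted p = 2.67e-10).

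In culture Gdf3 fell by 4.33 (SE 0.474, edgeR adjusted p = 3.84e-10) and Foxh1 by 3.64 (SE 0.256, edgeR adjusted p = 1.72e-18). Fst, the gene of the activin antagonist follistatin, rose by 2.76 (SE 0.238, edgeR adjusted p = 1.04e-14), Tgfbr2, a TGF-beta receptor, by 2.55 (SE 0.337, edgeR adjusted p = 5.85e-09) and Eomes, a T-box target of Nodal, by 3.3 (SE 0.435, edgeR adjusted p = 5.48e-09). Of the 12 other targets, 6 rose and 2 fell, against the 13.3% and 5.35% of all genes. The interaction was called for 24 of the 65 genes, 18 higher and 6 lower in culture, where 18.9% of all genes were higher and 7.84% lower, among them Foxh1 at -2.9 (SE 0.343, edgeR adjusted p = 2.72e-10) and Smad3 at -2.07 (SE 0.269, edgeR adjusted p = 3.72e-09).

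The GSC-like lines held few reads of the Nodal branch, and Id3 was higher and Id2 lower in them than in m14 cells. Their 22 libraries held 6 reads of Nodal in all, with 18 at 0. Id3 had 10.7 and 10.1 CPM at m14 and 31.4 to 137 CPM, with a mean of 58.8, in the 22 line libraries. Id2 had 9.8 and 14 CPM at m14 and 0 to 0.938 CPM in the lines. For both genes every line library lay on the same side of both m14 libraries.

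Against m14, 2 of the 10 genes were higher in the lines and 5 lower, where 13.8% of all genes were called. Id3 was higher by 2.41 (SE 0.419, edgeR adjusted p = 3.82e-05) and Id1 by 1.16 (SE 0.276, edgeR adjusted p = 0.000853). Id2 fell by 4.98 (SE 0.461, edgeR adjusted p = 4.64e-13) and Msx2 by 1.42 (SE 0.446, edgeR adjusted p = 0.0114). Bmp4, Lefty1 and Lefty2 were called lower too, on 5, 3 and 3 reads at m14, and these calls were lost without either m14 library, as was that of Msx2 without the first one. The macrophage and blood markers summed to 724 and 784 CPM at m14 and the Sertoli markers to 613 and 405, against 3.87 to 29.5 CPM and 19.8 to 82.5 CPM in the lines; their part in the Id2 difference was not tested. Of the 65 other genes 2 were higher and 11 lower, among them Inha (-4.27, SE 0.219, edgeR adjusted p = 2.45e-23), the inhibin alpha subunit and also a Sertoli marker, and Skil (1.16, SE 0.251, edgeR adjusted p = 0.000401), a SMAD corepressor.

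**Figure D4:**
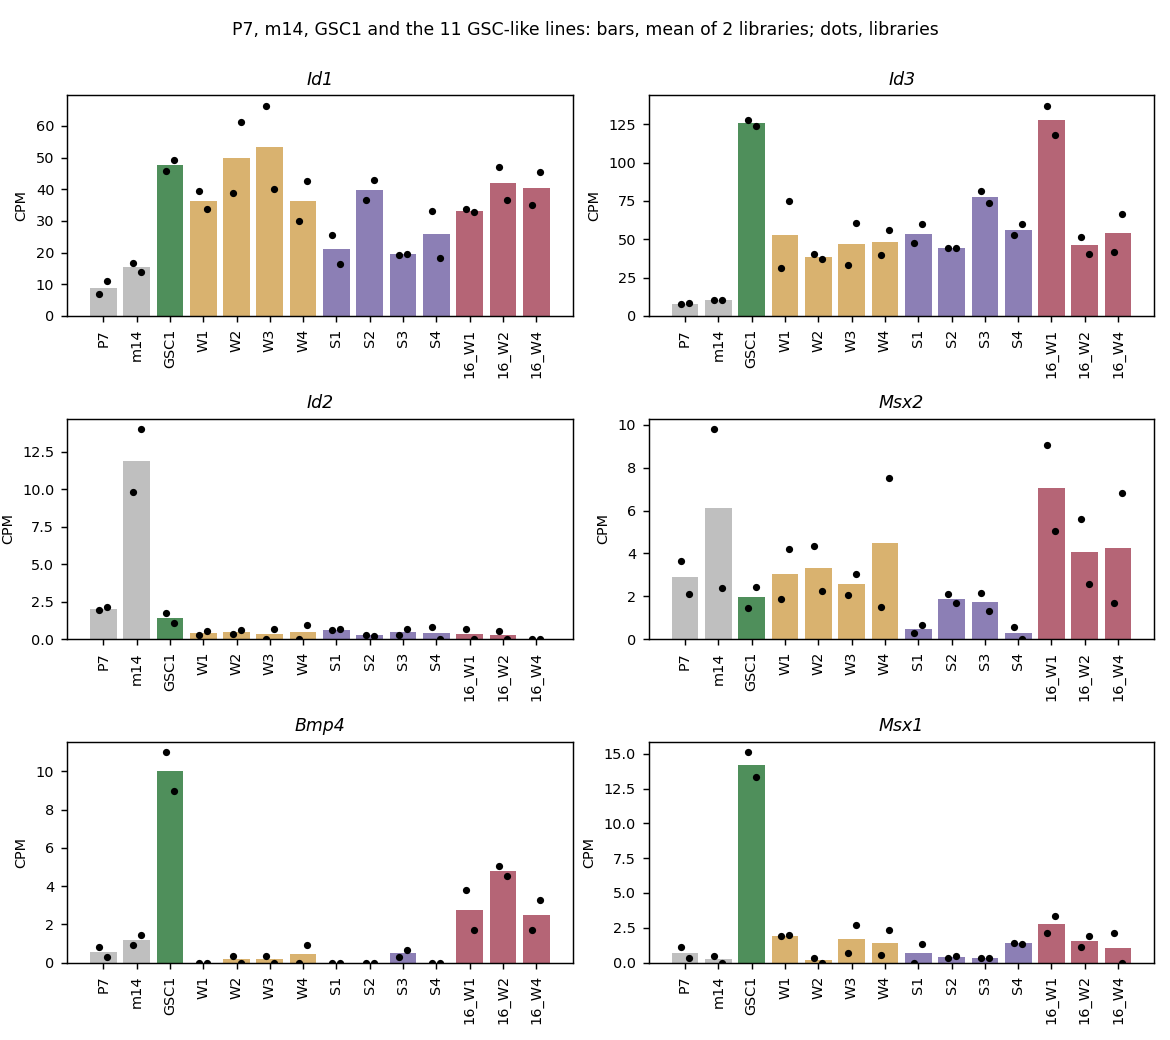
Levels in CPM of Id1, Id3, Id2, Msx2, Bmp4 and Msx1 in P7, m14, GSC1 and the 11 GSC-like lines, each panel with its own scale. Bars are means of 2 libraries and dots are libraries. Id3 lies at 10.1 and 10.7 CPM in m14 and at 31.4 or more in every line library, while Id2 lies at 0.938 or less in the lines.

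GSC1 was compared with the last in vivo time point, from which it differs in strain, transgenes and culture, whose effects cannot be told apart. Id3 had 128 and 124 CPM in GSC1 and 7.54 and 8.48 at P7, and Id1 45.8 and 49.3 against 6.98 and 10.9. Msx1 had 15.1 and 13.3 CPM against 1.12 and 0.303, and Bmp4 11 and 8.98 against 0.838 and 0.303. None of the 4 pairs of groups overlapped. All 4 were called higher, where 6.6% of all genes were: Id3 by 3.97 (SE 0.461, edgeR adjusted p = 5.96e-08), Id1 by 2.41 (SE 0.335, edgeR adjusted p = 1.4e-07), Msx1 by 4.21 (SE 0.838, edgeR adjusted p = 0.000123) and Bmp4 by 4.0 (SE 0.744, edgeR adjusted p = 4.8e-05). Lefty2, called lower as were 6.84% of all genes, had no read in GSC1 and 9 at P7, at least 2.93-fold lower against a floor of 3 reads over the group, a call lost without the first P7 or either GSC1 library. GSC1 is 1 line, and its 2 libraries say nothing of how such lines vary.

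Among lines the unit was the line, with the reads of its libraries summed, and of the 10 genes only Id1 and Id3 passed that filter. Neither differed at the threshold between the lines and GSC1, where 3.59% of all genes were called, between S and W lines (1.6%), or between the lines with prefix 16 and W lines (3.1%). At an unadjusted p under 0.05 the counts were 1, 1 and 0. Id3 in the lines against GSC1 had a log2 fold change of -1.07 (SE 0.412, edgeR adjusted p = 0.137), and without 16_W1, whose libraries stood at 137 and 118 CPM, it was called at -1.27 (adjusted p = 0.000845). Id1 in S against W lines had -0.74 (SE 0.208, edgeR adjusted p = 0.0216), short of the fold required, and without S2 it was called at -1.01 (adjusted p = 0.000184). Of genes under the filter, Bmp4 had 3.81 and 1.68 CPM in 16_W1, 5.04 and 4.51 in 16_W2 and 1.69 and 3.25 in 16_W4, against 0 to 0.938 CPM in the W and S lines. That filter asks for 5 RPM in at least 2 lines, so a gene reaching it in GSC1 alone was not tested. Msx1 had 15.1 and 13.3 CPM in GSC1 against 0 to 3.37 in the GSC-like lines, and Bmp4 11 and 8.98 against 0 to 5.04. Both were called in the lines against GSC1 with no filter.

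The order of the 31 groups was set by few clear gaps. Of the 30 pairs of neighbours in each gene's order of means, those whose libraries did not overlap numbered 8 for Lefty2, 6 for Id3, 5 for Lefty1 and for Id2, 4 for Id1 and for Tdgf1, 3 for Msx2 and 2 each for Nodal, Bmp4 and Msx1. The highest mean stood at d4 for Tdgf1 (251 CPM), Id1 (83.6), Id2 (29.2), Id3 (339), Msx1 (79.7) and Msx2 (48.6), at m3 for Nodal (30.3), Lefty1 and Lefty2, and at E18.5 for Bmp4 (10.6). Likeness was ranked over genes past the filter, leaving out those known only by a number. Bmp4, with no group mean of at least 20 CPM, was not ranked. As a description over the 31 group means of log2(CPM + 1), which share libraries and depth, the gene most like Nodal was Gdf3 (Pearson r 0.969), followed by Lefty1 (0.969) and Dppa5a (0.968). Lefty2 was most like Lefty1 (0.968), Tdgf1 like L1td1 (0.944), Id3 like Fzd10 (0.935), Id1 like Socs3 (0.876), Id2 like Apoe (0.9), Msx2 like Pcolce2 (0.86) and Msx1 like Naprt (0.768).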

How the data were processed

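SC3-seq, a 3′-end RNA sequencing method, was deposited as 1 table per library. Per the submitters' processing notes, cutadapt 1.9.1, TopHat2 2.0.11, Bowtie2 2.2.7, HTSeq 0.9.1 and GRCm38.p6 were used; the sources used here do not give the counting strand. The deposited read count is the raw count per gene. The deposited RPM, per the file headers, is a signal per 1000000 reads, here found to be scaled to nuclear genes, and it set the filter of 5 RPM in at least 2 libraries (16008 of 35914 genes; 11458 when lines were the unit). Counts were tested with edgeR 4.0.16 in R 4.3.3 (robust quasi-likelihood, TMM scaling, a coefficient per group, Benjamini-Hochberg over all genes tested), with limma 3.58.1, DESeq2 1.42.0, other scalings, filters and pseudocounts and left-out libraries as alternatives. The limma alternatives had no TMM scaling, so they changed the scaling along with the method and the pseudocount. The fitting was tested on simulated data. Folds are log2, and floors of 3 reads cover counting error only. Groups followed the labels. The 10 genes, the pathway and marker lists and the tests were chosen with earlier results of these data known. All 10 genes were described in every comparison; of each other list, up to 3 called genes with the largest change and a mean of at least 10 CPM on the higher side were taken, and a choice of those is named, with the steps of Foxh1 and Gdf3 chosen after their values were seen. Libraries of a group differed by more than sampling noise in every group, with chi-square per degree of freedom of 1.51 to 15.2.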

Additional observations from a re-analysis of the deposited data

Results flagged for a closer look

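Of 70 sets of values tested, 9 held a value far from the others. Chance flags about 1 in 20 sets of independent, normally distributed values with a common mean. That rate does not apply to sets that pool the time points of a stage, where differences between time points can raise a flag. Nor does it apply to counts near 0, such as those of 5 of the 9. The second E14.5 library had 5.66 CPM of Nodal, against 0 to 2.99 in the other prospermatogonia. The second P0 library had 9.18 CPM of Lefty2, against 0 to 4.07 in the other spermatogonia. The first m10 library had 27.8 CPM of Id2, against 6.22 to 14 in the other spermatogonia-like cells, and the second d4 library had 65.1 CPM of Msx2, against 27.2 to 32.1 in the other PGC-like libraries. The other 5 were lines with 1 to 5 reads where the rest of their set had none: Bmp4 in S3 (0.483 CPM), Nodal in W1 (0.423) and S2 (0.122), and Lefty1 in W1 (0.722) and S3 (0.156).

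The stage step differed between culture and in vivo, by the interaction test, for 6 of the 10 genes, against 26.8% of all genes. Of the 6, 4 were lost without m0 and m3 and all 6 with the time point as the unit. The difference, culture minus in vivo on the log2 scale, was 3.01 for Bmp4, -3.81 for Lefty2, 1.62 for Id1, 1.67 for Id2, -2.01 for Id3 and 1.53 for Msx2.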

How the results depend on the processing

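Counts of called genes among the 10 moved as follows. The in vivo stage step (5 called) gave 2 without E14.5, an alternative chosen after seeing the data, 2 with limma at a pseudocount of 1 or 0.5, and 0 with limma at a pseudocount of 5 or with the time point as the unit. It gave 3 to 6 when a library was left out, with 3 without the second library of E14.5, E15.5, P1, P5 or P7. The culture stage step (7) gave 4 without m0 and m3 and 2 with the time point as the unit, and the difference between the steps (6) gave 2 and 0. The lines against m14 (7) gave 3 and 2 with limma at pseudocounts of 1 and 5, 4 in a fit over the compared groups, where 6 genes failed the filter, and 3 to 7 when a library was left out. The lines against GSC1 (0) gave 4 with the library as the unit, 2 with no filter and 0 to 1 when a line was left out. S against W lines (0) gave 1 with the library as the unit, 1 by adjusted p alone, 1 with no filter and 0 to 1 when a line was left out, and the lines with prefix 16 against W lines (0) gave 1 with the library as the unit and 1 with no filter. The 25 calls over consecutive steps ranged from 22 to 31. No value changed sign where called. The cause was not tested, apart from fewer samples or genes tested. Scaling by RPM moved the median of all genes over the culture step from 0.11 to 0.34 and the share of higher among called genes from 71.3% to 83.2%. With limma at a pseudocount of 1, which also lacked TMM scaling, that median was 0.26 and that share 80.0%. A replicate block left the counts of calls at 5, 7, 6, 7, 5 and 25 for the in vivo step, the culture step, their difference, the lines against m14, GSC1 against P7 and the consecutive steps. Same-numbered libraries correlated above 0.1 in 24 of 465 pairs of groups, so the numbers were not taken to pair libraries. Depth limits the low levels: Nodal, Bmp4 and Msx1 had 427, 465 and 481 reads over all libraries, and Nodal, Lefty1 and Tdgf1 were at 0 in 27, 25 and 24 of 62.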

Other observations

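Id4, the Id gene that marks spermatogonia with stem cell activity in the mouse, is not among the 10 genes. Its highest mean stood at P3, and those of Id1, Id2 and Id3 at d4. In vivo Id4 had 57.1 and 48.1 CPM at E14.5 and 16.3 and 19.7 at E15.5, a fall of 1.53 on the log2 scale (SE 0.276, edgeR adjusted p = 6.84e-05). Over that step the means of Id1 (4.57 to 2.54 CPM), Id2 (2.81 to 0.412) and Id3 (7.73 to 4.44) were lower too, without a call by edgeR. Id4 rose by 1.6 from E17.5 to E18.5 (SE 0.274, edgeR adjusted p = 0.000104), stood at 299 and 264 CPM at P3, and fell by 1.04 to P5 (SE 0.223, edgeR adjusted p = 0.00226) and by 1.78 to P7 (SE 0.24, edgeR adjusted p = 1.98e-06). In culture Id4 fell by 2.27 from d4 to d4c5 (SE 0.543, edgeR adjusted p = 0.00385), a step at which Id1 was called lower too. It had 13.2 and 13.5 CPM at m7 and 84.5 and 104 at m10, a rise of 2.81 (SE 0.307, edgeR adjusted p = 1.1e-09), while none of the 10 genes was called at that step.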
